A study of Homo sapiens with 2 samples.

Results

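The genes described here are the Wnt ligands, their receptors and the enzymes that clear those receptors, 36 protein-coding genes chosen by name out of 19974 on chromosomes 1 to 22 and X. They comprise 19 WNT ligand genes, 10 Frizzled (FZD) receptor genes, 5 genes of coreceptors and alternative receptors (LRP5, LRP6, RYK, ROR1 and ROR2) and 2 ubiquitin ligase genes (ZNRF3 and RNF43), and all 36 were found in the RefSeq table for GRCh38. The cells were C4-2B, an established human line of castration-resistant prostate cancer from the LNCaP lineage, made resistant to the antiandrogen enzalutamide by at least 6 months of culture with the drug. They were profiled by CUT&Tag, where a transposase tethered to an antibody inserts adapters beside marked nucleosomes, with 1 antibody per library on 100000 cells. The H3K4me1 library maps a mark of enhancers and promoter flanks, and the H3K27ac library maps a mark of active enhancers and promoters. With 1 library per mark, 1 resistant line and neither sensitive cells nor a background library among the samples, the values describe these 2 libraries and no difference between conditions or gene groups was tested.

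Wnt proteins are secreted, lipid-modified ligands. In canonical signalling a ligand bridges a Frizzled receptor and LRP5 or LRP6, which stabilises beta-catenin and switches on TCF/LEF target genes, while RYK, ROR1 and ROR2 serve beta-catenin-independent branches that act on cell polarity and movement. ZNRF3 and RNF43 are membrane ubiquitin ligases that remove Frizzled receptors from the cell surface, and R-spondins bound to LGR receptors relieve this removal. In the prostate, Wnt ligands take part in budding of the gland, and Wnt pathway genes are among those altered in advanced prostate cancer.

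A peak is a region called by the authors as enriched for a mark. The pileup, the count of fragments covering a peak's summit, was recovered from the deposited fold enrichment and p. Settings and duplicate removal are not given, so a fragment here is a unit as the authors' peak caller counted it. Pileups are given with exact Poisson 95% intervals, which cover counting error only and take these units as independent. The H3K27ac list held 64784 peaks with a median of 13 fragments and the H3K4me1 list 139511 peaks with a median of 18 fragments, so values of the 2 marks are not on 1 scale. A low pileup does not tell fewer marked cells from a weaker mark per cell. The label was checked against marker genes: both marks lay at the ends of all 10 prostate luminal markers, KLK3, TMPRSS2 and HOXB13 among them. Of these, KRT8 and KRT18 had equal pileups of each mark, so they may share peaks. H3K27ac lay at the ends of 0 of 5 basal, 1 of 5 neuroendocrine, 0 of 5 stromal and 0 of 3 endothelial markers, and H3K4me1 at 2, 4, 1 and 0 of them. Of 3 blood markers 2 had both marks, with 31 H3K27ac fragments (21.1 to 44) at SPI1 and 14 (7.65 to 23.5) at CD3E. Over all protein-coding genes 62.3% had H3K27ac at an end, 65.6% H3K4me1 and 58.9% both. The neuroendocrine H3K4me1 count and the blood count are thus not low against all genes, and each list is short.

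Promoter sequences were read from the RefSeq promoter table (GRCh38.p14), which held 30 starts for 26 of the 36 genes. The other 10 were WNT7B, WNT10B, WNT11, FZD2, FZD3, FZD6, FZD7, FZD10, LRP6 and ZNRF3. The starts shown are those of the gene in the table with the deepest H3K27ac at an end in each role (RNF43, RYK, FZD5 and WNT9A), the WNT5A start inside the gene that carries H3K27ac, and WNT2 as a ligand with neither mark. Each line gives the 250 bases before the start, 5′ to 3′ on the strand of the gene, with CG dinucleotides in capitals. The windows are chr17:58417535-58417784 for RNF43, chr3:134250860-134251109 for RYK, chr2:207769907-207770156 for FZD5, chr1:227947933-227948182 for WNT9A, chr3:55487307-55487556 for WNT5A and chr7:117323059-117323308 for WNT2, all on the minus strand.
RNF43: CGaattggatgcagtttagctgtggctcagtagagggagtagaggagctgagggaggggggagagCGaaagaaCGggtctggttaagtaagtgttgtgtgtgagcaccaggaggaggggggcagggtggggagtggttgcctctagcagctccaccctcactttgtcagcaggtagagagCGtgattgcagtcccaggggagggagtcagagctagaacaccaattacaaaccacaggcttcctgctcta
RYK: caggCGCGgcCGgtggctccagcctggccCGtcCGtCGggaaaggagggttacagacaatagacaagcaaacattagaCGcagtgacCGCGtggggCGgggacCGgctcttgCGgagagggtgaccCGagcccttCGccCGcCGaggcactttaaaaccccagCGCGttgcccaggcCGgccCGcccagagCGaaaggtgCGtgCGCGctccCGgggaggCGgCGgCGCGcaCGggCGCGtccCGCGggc
FZD5: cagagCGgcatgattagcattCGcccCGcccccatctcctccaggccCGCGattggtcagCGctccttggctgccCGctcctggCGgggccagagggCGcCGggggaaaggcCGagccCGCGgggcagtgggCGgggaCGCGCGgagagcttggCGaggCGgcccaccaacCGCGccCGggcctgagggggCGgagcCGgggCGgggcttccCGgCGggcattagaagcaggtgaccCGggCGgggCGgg
WNT9A: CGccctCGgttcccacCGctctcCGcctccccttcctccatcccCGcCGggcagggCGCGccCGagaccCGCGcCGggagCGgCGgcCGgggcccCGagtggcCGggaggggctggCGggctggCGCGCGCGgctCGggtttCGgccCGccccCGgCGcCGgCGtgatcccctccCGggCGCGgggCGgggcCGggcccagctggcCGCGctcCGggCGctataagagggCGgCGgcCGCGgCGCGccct
WNT5A: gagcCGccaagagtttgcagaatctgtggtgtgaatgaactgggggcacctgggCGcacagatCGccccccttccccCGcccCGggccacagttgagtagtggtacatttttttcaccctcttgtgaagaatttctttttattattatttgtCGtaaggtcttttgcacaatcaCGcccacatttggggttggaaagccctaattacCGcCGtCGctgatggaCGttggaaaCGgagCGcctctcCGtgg
WNT2: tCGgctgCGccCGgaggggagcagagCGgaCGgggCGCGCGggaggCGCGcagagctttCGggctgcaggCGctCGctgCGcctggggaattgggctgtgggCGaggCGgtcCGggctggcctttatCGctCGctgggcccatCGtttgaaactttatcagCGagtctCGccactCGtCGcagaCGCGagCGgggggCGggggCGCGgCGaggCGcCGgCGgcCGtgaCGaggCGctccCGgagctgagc
These stretches hold 4 CG dinucleotides at RNF43, 34 at RYK, 30 at FZD5, 44 at WNT9A, 14 at WNT5A and 38 at WNT2. The windows of RNF43, RYK, FZD5 and WNT9A overlapped an H3K27ac peak, and those of WNT5A and WNT2 did not.

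Fewer of the ligand genes than of the receptor genes carried the marks at their ends. A gene was counted as marked when a peak lay within 1 kb of either end of its RefSeq span. H3K27ac was found at 8 of 19 ligands, 7 of 10 Frizzled receptors, 4 of 5 coreceptors and both ligases, against a background of 62.3% of all protein-coding genes. H3K4me1 was found at 11 of 19 ligands, 8 of 10 Frizzled receptors, 4 of 5 coreceptors and both ligases, against a background of 65.6%. The share was thus 42.1% of ligands and 73.3% of the 15 Frizzled receptors and coreceptors for H3K27ac, and 57.9% and 80% for H3K4me1. The ligand share for H3K4me1 is near that of all genes. In groups of 19 and 15 genes the other differences from all genes rest on few genes. Each of the 21 members with H3K27ac at an end also had H3K4me1 at an end, as did 11756 of the 12435 genes with H3K27ac at an end. Both marks were thus at 58.3% of the 36 members and 58.9% of all genes, so having both is not particular to the members. The marks lay at the same end for 20 of the 21 and at opposite ends for WNT11. WNT3A, WNT5A, WNT7A and FZD9 had H3K4me1 alone (6.76% of all genes), and 11 members had neither mark (31% of all genes). The ligand count rested in part on shallow peaks. At least 10 H3K27ac fragments were found at 4 of the 19 ligands, or 4 of the 8 marked ones. The same depth was found at 11 of the 15 Frizzled receptors and coreceptors, which are all 11 marked ones. Of all genes 57.1% reached this depth, which is 11396 of the 12435 genes with H3K27ac at an end. For H3K4me1 this depth was reached by 10 of the 19 ligands and 11 of the 15 Frizzled receptors and coreceptors, and by 61.7% of all genes. With a minimum -log10 q of 5 the ligand count was 5, and the share of all genes at that threshold was not counted.

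**Figure D1:**
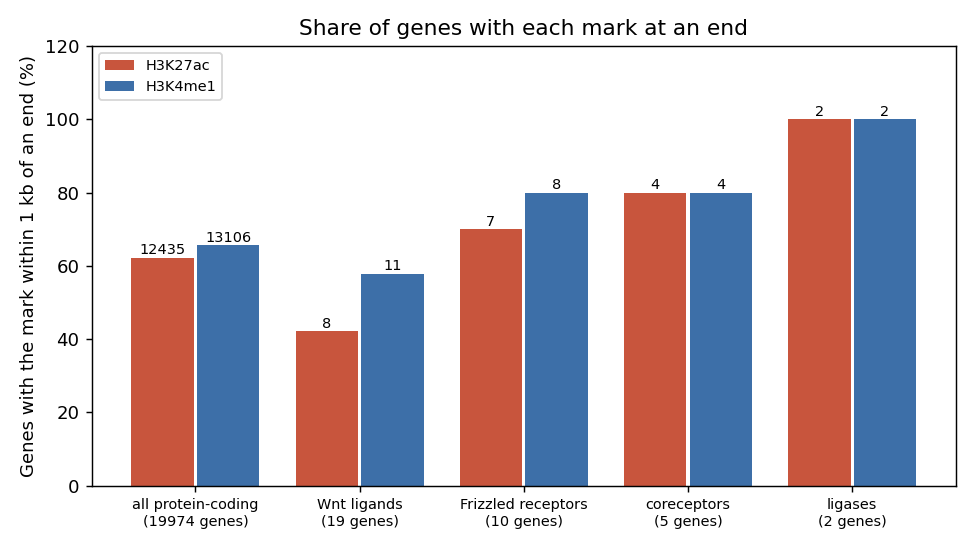
Share of genes with H3K27ac (red) or H3K4me1 (blue) within 1 kb of a gene end, in percent, for all protein-coding genes and for each role, with the number of genes over each bar. The ligand bars, at 42.1% and 57.9%, are lower than those of all genes, and the bars of the other 3 roles are higher. Each role holds at most 19 genes, so few genes separate these bars from those of all genes.

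Among ligands with both marks, WNT7B, WNT10B, WNT9A and WNT10A had the deepest H3K27ac. At WNT7B (chromosome 22, 45920366 to 45977162) the H3K27ac summit held 54 fragments (40.6 to 70.5) and the H3K4me1 summit 197 (170 to 227), which placed H3K4me1 at percentile 99.3 of all genes with that mark at an end. Both peaks lay at the lower-coordinate end of the gene. Which end is the start was not known for WNT7B, so these peaks are not placed at its promoter. Near its higher-coordinate end, 1.19 kb inside the gene, H3K27ac held 9 fragments (4.12 to 17.1) and H3K4me1 24 (15.4 to 35.7). WNT10B (chromosome 12, 48965340 to 48971735) had 36 fragments (25.2 to 49.8) of each mark. WNT9A (chromosome 1, 227918656 to 227947932) had 26 fragments (17 to 38.1) for H3K27ac and 66 (51.0 to 84.0) for H3K4me1, in peaks inside the gene whose nearer edges were within 1 kb of its start, with summits 1115 and 1188 bp downstream of it. At WNT10A (chromosome 2, 218874116 to 218893928) the 23 H3K27ac fragments (14.6 to 34.5) and 38 H3K4me1 fragments (26.9 to 52.2) lay at the far end of the gene, and no peak lay within 1 kb of its listed start, 6.74 kb inside the span.

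The other 4 ligands with both marks had fewer than 10 H3K27ac fragments. WNT2B had 9 (4.12 to 17.1), WNT4 and WNT11 had 8 each (3.45 to 15.8) and WNT1 had 6 (2.20 to 13.1). Their H3K4me1 summits ran from 14 fragments at WNT1 to 61 (46.7 to 78.4) at WNT2B, with 21 at WNT4 and 37 at WNT11. The lowest H3K27ac summit called anywhere held 4 fragments, so WNT4, which acts in the development of female reproductive organs, and WNT1, known from virus-induced mammary tumours in mice, were near the lower limit of the peak list. At WNT1 the H3K4me1 peak of 14 fragments lay at the far end of the gene, and that at its start held 7 (2.81 to 14.4). At WNT11 the H3K27ac peak lay at the lower-coordinate end and the H3K4me1 peak at the higher-coordinate end. Which of these is its start was not known.

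**Figure D2:**
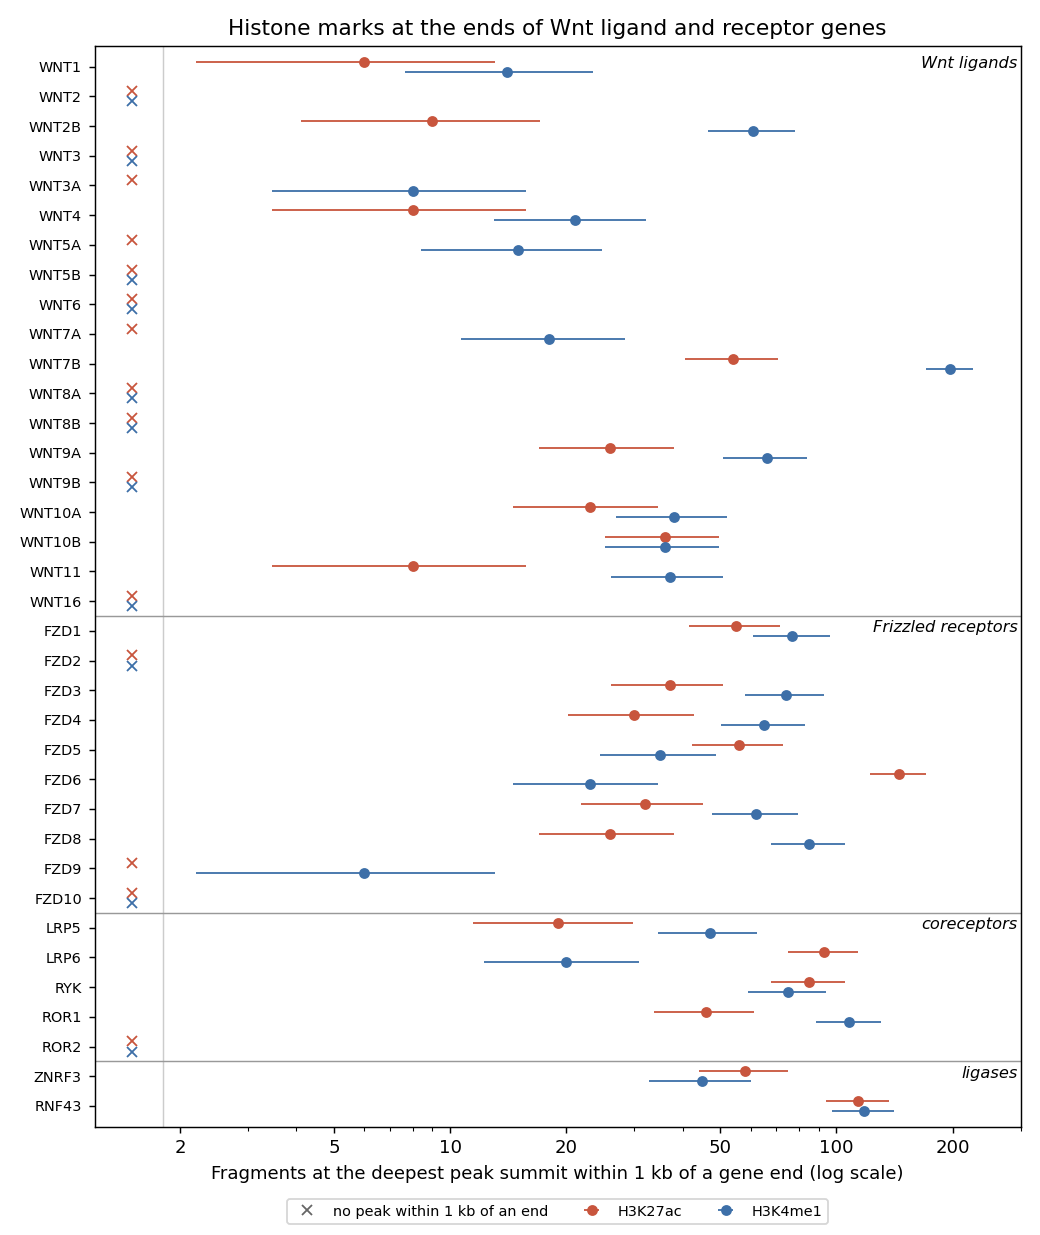
Fragments at the deepest peak summit within 1 kb of a gene end (log axis) for each of the 36 genes, H3K27ac in red and H3K4me1 in blue, with exact Poisson 95% intervals and crosses where no peak was called. FZD6 has the deepest H3K27ac, at 145 fragments, and WNT7B the deepest H3K4me1, at 197.

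WNT5A, a ligand mainly of the beta-catenin-independent branch, carried H3K27ac at a start inside its RefSeq span and not at the ends. At its ends it had H3K4me1 of 15 fragments (8.40 to 24.7) and no H3K27ac. The promoter table lists WNT5A starts 18 and 23.9 kb inside the span (chromosome 3, 55465715 to 55505263). At the first, 3 H3K27ac peaks lay within 1 kb, with up to 40 fragments (28.6 to 54.5), and H3K4me1 reached 34 (23.5 to 47.5). At the second there was H3K4me1 of 16 fragments and no H3K27ac. The deepest H3K27ac peak in the gene (55484983 to 55485540) held 49 fragments (36.3 to 64.8) and lay between these starts. WNT5A had 8 H3K27ac and 16 H3K4me1 peaks in 39.5 kb, or 20.2 and 40.5 per 100 kb, against medians of 3.58 and 6.70 and upper deciles of 12.4 and 18.7 over the 10991 genes of at least 20 kb.

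WNT3A, a ligand of the canonical branch, had H3K4me1 of 8 fragments (3.45 to 15.8) over its start and no H3K27ac at its ends.

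WNT7A had no H3K27ac at its ends but a deep cluster upstream of its start. Within 1 kb of the start lay 5 H3K4me1 peaks of up to 18 fragments (10.7 to 28.4). On the upstream side, 15.2 kb from the gene, an H3K27ac peak (chromosome 3, 13895238 to 13896107) held 171 fragments (146 to 199) and its H3K4me1 summit 111 (91.3 to 134). This peak and H3K27ac peaks of 37 and 21 fragments formed a super-enhancer-like region of rank 368 (13885560 to 13896798), 5.49 kb from the gene. Super-enhancer-like regions are H3K27ac peaks away from gene ends, joined over gaps of at most 12500 bp and ranked by summed fold enrichment times length, and 1326 of 25235 joined regions were so called. WNT7A was the nearest protein-coding gene to all 6 of its flanking H3K27ac peaks, while the region overlaps the noncoding RNA gene LOC105376957.

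Regions of this kind lay within 50 kb of an end of 6 of the 36 genes (16.7%), WNT7A, WNT7B, WNT8A, WNT11, LRP5 and ZNRF3, against 13.5% of all genes. The share is thus near the background. WNT7B had a region on each side. The region of rank 141 (chromosome 22, 45994923 to 46014389) lay 17.8 kb from the gene and held H3K27ac peaks of 168 (144 to 195), 154 (131 to 180) and 75 fragments (59 to 94). The nearest protein-coding gene was WNT7B for the last 2 of these and LOC124905135, 30.3 kb away, for the first. The region overlaps the transcribed pseudogene LOC730668 and the noncoding RNA gene LOC124905134, and the peak of 168 fragments overlaps the latter. The region of rank 600 (45887539 to 45906182), 14.2 kb away, overlapped the gene LOC105373071. The WNT11 region (rank 393, chromosome 11, 76140618 to 76179608, 6.72 kb away) held 9 H3K27ac peaks of up to 27 fragments. Its deepest peak overlapped UVRAG, and WNT11 was the nearest protein-coding gene to the 4 peaks closest to it, of 8 to 14 fragments. The WNT8A region lay in FAM13B (rank 687, 43.7 kb away) and was a single H3K27ac peak of 160 fragments (136 to 187). WNT7B was near a region in all 7 alternative settings, and LRP5 in all but the 20 kb limit. When joining was limited to gaps of 1 kb, 16 members were near a region and 4326 regions were called. The share of all genes near one of those 4326 regions was not counted, so the 16 cannot be set against the 13.5%.

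The 8 ligands with neither mark at their ends were WNT2, WNT3, WNT5B, WNT6, WNT8A, WNT8B, WNT9B and WNT16. WNT2 and WNT16 had no H3K27ac peak in the gene or within 50 kb (10% of all genes had none), and 4 H3K4me1 peaks each. No member was without an H3K4me1 peak there, as 5.7% of all genes were. The H3K4me1 peaks held up to 21 fragments (13.0 to 32.1) inside WNT2 and 40 (28.6 to 54.5) 4.85 kb from WNT16. WNT8A had no peak of either mark inside the gene. WNT6 had 2 H3K4me1 peaks and no H3K27ac peak inside, and the deepest peaks around it were those at the far end of WNT10A. WNT8B had 1 peak of each mark inside, and the deepest around it lay in other genes, H3K27ac of 30 fragments (20.2 to 42.8) at NDUFB8 and H3K4me1 of 35 (24.4 to 48.7) in SEC31B. WNT3, a ligand with known roles in embryonic axis formation, had both marks outside the 1 kb window, 2.30 kb from its lower-coordinate end, where H3K27ac held 18 fragments (10.7 to 28.4) and H3K4me1 99 (80.5 to 121). This stretch (chromosome 17, 46764801 to 46765832) is also covered by LRRC37A2. WNT5B, WNT8B and WNT5A also gained H3K27ac with a window of 2.5 kb, which raised the ligand count to 12. The WNT3 peak lies at the far end of the gene, and the WNT5A peak held 7 fragments (2.81 to 14.4). The share of all genes with this window was not counted, so the 12 cannot be set against the 62.3% at 1 kb.

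The deepest H3K27ac peaks near ligands without H3K27ac at an end lay in part at other genes. The deepest H3K27ac peak within 50 kb of WNT9B, with 253 fragments (223 to 286), lay at an end of GOSR2, that of WNT3A, with 230 (201 to 262), at an end of ARF1, and that of WNT5B, with 113 (93.1 to 136), at an end of ADIPOR2. Among the 83 H3K27ac peaks in the 50 kb around all 19 ligand genes, 51 had a gene outside the 36 as the nearest protein-coding gene. For H3K4me1 this was so for 98 of 144. The same held for 25 of 42 H3K27ac and 50 of 95 H3K4me1 peaks around Frizzled receptors and coreceptors. Around the ligases it held for all 12 and all 13, so it is not particular to ligands. Neighbouring ligands also share peaks. WNT1 and WNT10B lie 6.59 kb apart and share all 7 H3K27ac and 15 H3K4me1 peaks counted for each, WNT6 and WNT10A overlap by 118 bp and share 2 and 7, WNT3 and WNT9B share 2 and 0, and WNT3A and WNT9A share 1 and 2.

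**Figure D3:**
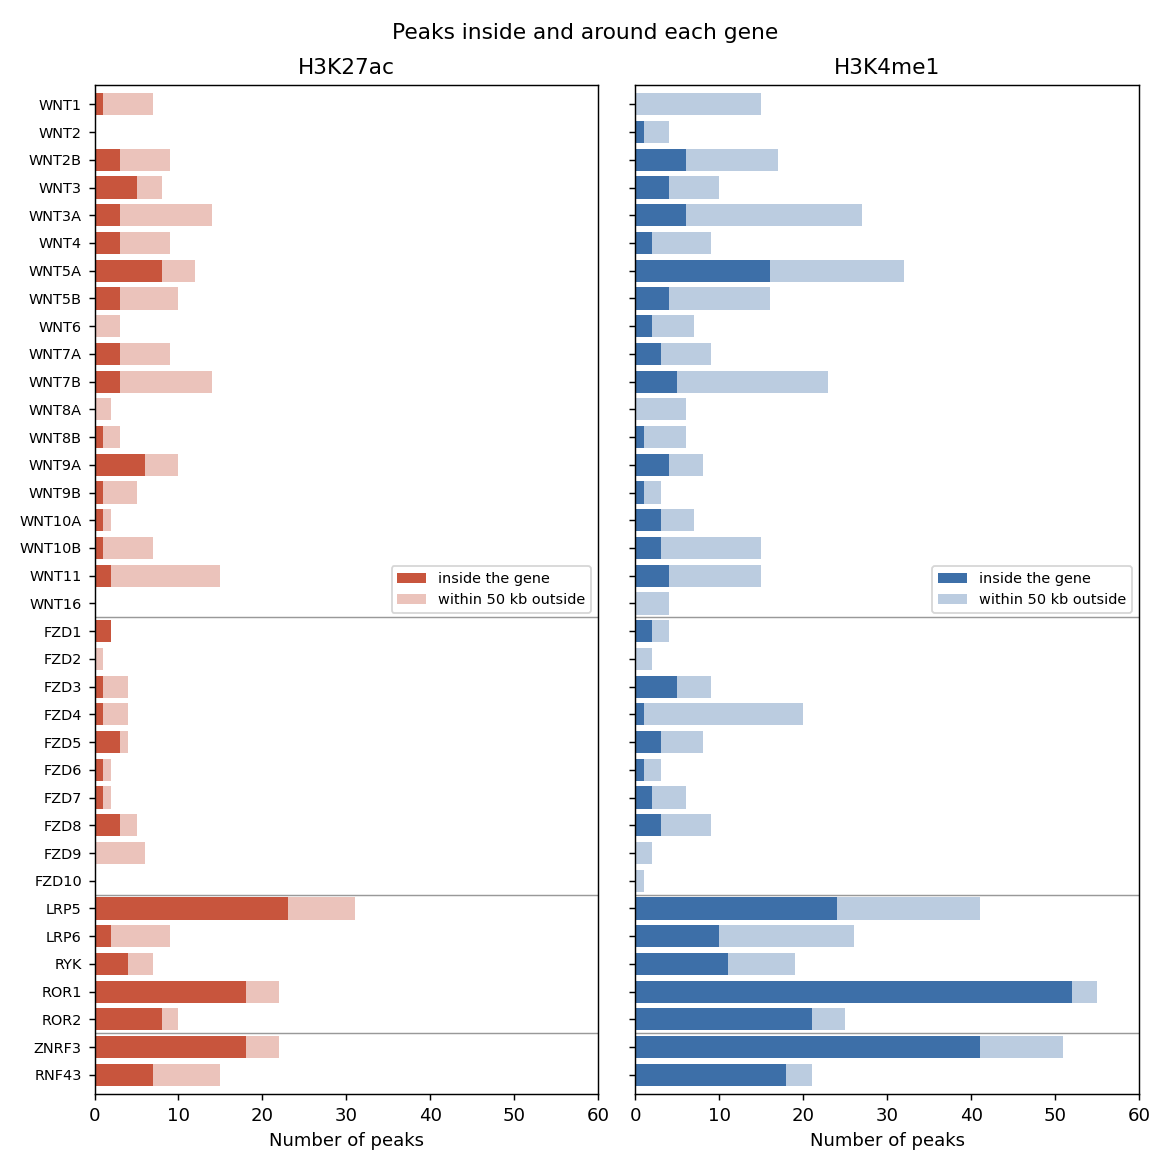
Number of H3K27ac peaks (left) and H3K4me1 peaks (right) inside each gene (dark) and within 50 kb outside it (light). The most peaks inside a gene are the 23 of LRP5 for H3K27ac and the 52 of ROR1 for H3K4me1, and WNT2, WNT16 and FZD10 have no H3K27ac bar.

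Most Frizzled receptor genes, which encode the seven-pass membrane receptors for Wnt ligands, carried both marks at an end. That end is the start for FZD1, FZD4, FZD5 and FZD8. The median length of the Frizzled genes is 5.74 kb, but FZD3 spans 80.0 kb and FZD6 34.4 kb. FZD6 (chromosome 8, 103298494 to 103332866) stood highest, with 145 H3K27ac fragments (122 to 171), at percentile 86.7 of all genes with H3K27ac at an end. Its H3K4me1 summit was shallow, at 23 fragments (14.6 to 34.5). FZD5 (chromosome 2, 207762598 to 207769906) had 56 H3K27ac (42.3 to 72.7) and 35 H3K4me1 fragments (24.4 to 48.7), with summits 85 bp downstream and 1 bp upstream of its start. FZD1 (chromosome 7, 91264433 to 91271326) had 55 (41.4 to 71.6) and 77 (60.8 to 96.2). The pileups of FZD5 and FZD1 for H3K27ac lie within each other's intervals, and both lie below the interval of FZD6.

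FZD3, FZD7, FZD4 and FZD8 had fewer H3K27ac than H3K4me1 fragments, as FZD1 did, on scales that differ between the marks. FZD3 had 37 (26.1 to 51.0) and 74 (58.1 to 92.9), FZD7 32 (21.9 to 45.2) and 62 (47.5 to 79.5), FZD4 30 (20.2 to 42.8) and 65 (50.2 to 82.8), and FZD8 26 (17 to 38.1) and 85 (67.9 to 105). Their H3K27ac intervals overlap, so these 4 are not ordered by the data. The FZD8 peaks also lie within 1 kb of an end of LOC124902528. Within FZD4, a receptor for Norrin as well as for Wnt ligands, and up to 50 kb away lay 20 H3K4me1 and 4 H3K27ac peaks. The deepest H3K27ac peak of these (chromosome 11, 86999984 to 87000683) held 32 H3K27ac (21.9 to 45.2) and 126 H3K4me1 fragments (105 to 150), 44.6 kb from FZD4 and 37.3 kb from an end of TMEM135. This peak overlaps the noncoding RNA gene FZD4-DT.

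FZD9, FZD2 and FZD10 were the Frizzled genes without H3K27ac at an end. FZD9 had an H3K4me1 peak of 6 fragments (2.20 to 13.1), and its 6 H3K27ac peaks within 50 kb held 7 fragments or fewer. FZD2 had 1 H3K27ac peak within 50 kb, of 25 fragments (16.2 to 36.9) and 46.5 kb away. FZD10 had no H3K27ac peak and 1 H3K4me1 peak of 11 fragments (5.49 to 19.7) in its surroundings.

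The canonical coreceptors LRP5 and LRP6 were marked in different ways. LRP6 (chromosome 12, 12116025 to 12267044) carried 93 fragments (75.1 to 114) of H3K27ac and 20 (12.2 to 30.9) of H3K4me1 at its higher-coordinate end, and 2 H3K27ac peaks in its whole 151 kb body. LRP5 (chromosome 11, 68298412 to 68449275) had 19 (11.4 to 29.7) and 47 (34.5 to 62.5) at its lower-coordinate end, and 23 H3K27ac peaks in a body of nearly the same length, 15.2 per 100 kb against 1.32 for LRP6. The listed LRP5 start lies 14.2 kb inside the span. Within 1 kb of it H3K27ac reached 44 fragments (32.0 to 59.1), with the summit 728 bp downstream, and no H3K4me1 peak was called there. Further into the gene, at 68314618 to 68315278, H3K27ac of 88 fragments (70.6 to 108) overlapped H3K4me1 of 107 (87.7 to 129).

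LRP5 also held a super-enhancer-like region inside the gene, of rank 649 (68341324 to 68354974), with 5 H3K27ac and 4 H3K4me1 peaks. Its deepest peak (68342416 to 68343501) had 110 H3K27ac (90.4 to 133) and 165 H3K4me1 fragments (141 to 192). Beyond the region, peaks of 53 H3K27ac (39.7 to 69.3) and 131 H3K4me1 fragments (110 to 155) lay 68.4 kb from the nearer gene end. The deepest H3K27ac peak within 50 kb of LRP5, with 181 fragments (156 to 209), lay at an end of PPP6R3.

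Of the alternative receptors, RYK and ROR1 were marked at their starts and ROR2 was marked inside the gene. RYK (chromosome 3, 134157133 to 134250859), a receptor with an inactive kinase domain, had 85 H3K27ac (67.9 to 105) and 75 H3K4me1 fragments (59 to 94). ROR1 (chromosome 1, 63774017 to 64181498), a receptor for WNT5A, had 46 (33.7 to 61.4) and 108 (88.6 to 130), the second-deepest H3K4me1 among the receptors and ligases after RNF43. Inside ROR1, the longest of the 36 genes at 407 kb, lay 18 H3K27ac and 52 H3K4me1 peaks, and all 18 H3K27ac peaks overlapped H3K4me1. The H3K27ac peaks of ROR1 were shallow, with a median of 9 fragments. Away from the start the deepest held 35 fragments (24.4 to 48.7) each, at 63928622 to 63929098 and at 64072314 to 64072882.

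ROR2 (chromosome 9, 91722601 to 91950228) had neither mark within 1 kb of its start, but H3K27ac of 22 fragments (13.8 to 33.3) with H3K4me1 of 82 (65.2 to 102) lay just outside that window, 1.22 kb inside the gene. Its deepest H3K27ac peak (91838294 to 91838582) held 43 fragments (31.1 to 57.9), again with 82 of H3K4me1, 112 kb from the nearer end. In all, 8 H3K27ac and 21 H3K4me1 peaks lay in ROR2. By density the bodies of ROR1 and ROR2 were near the median gene for H3K27ac, at 4.42 and 3.51 peaks per 100 kb.

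The ligases ZNRF3 and RNF43, which are also targets of canonical signalling, carried both marks at their ends and many H3K4me1 peaks inside. RNF43 (chromosome 17, 58352500 to 58417534) had 114 H3K27ac (94.0 to 137) and 118 H3K4me1 fragments (97.7 to 141) over its start, at percentiles 76.0 and 96.1 of marked genes. Its other listed start, 14.8 kb inside the gene, had H3K4me1 of 18 fragments and no H3K27ac. A peak of 55 H3K27ac fragments at the far end lay at SUPT4H1. Inside RNF43 lay 18 H3K4me1 peaks (27.7 per 100 kb, above the upper decile), and 6 of its 7 H3K27ac peaks overlapped H3K4me1.

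ZNRF3 (chromosome 22, 28883572 to 29057488) had 58 H3K27ac (44 to 75) and 45 H3K4me1 fragments (32.8 to 60.2) at its lower-coordinate end. Inside it lay 18 H3K27ac and 41 H3K4me1 peaks (10.3 and 23.6 per 100 kb), and all 18 overlapped H3K4me1. The super-enhancer-like region of rank 562 (28892209 to 28918526) lay wholly in ZNRF3, with 8 H3K27ac peaks of up to 25 fragments (16.2 to 36.9) and 12 H3K4me1 peaks. Further inside, H3K27ac of 32 fragments (21.9 to 45.2) overlapped H3K4me1 of 96 (77.8 to 117) at 29030696 to 29031086. The deepest H3K27ac peak within 50 kb, of 66 fragments (51.0 to 84.0), lay at an end of KREMEN1, which encodes a receptor for the Wnt antagonist DKK1.

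**Figure D4:**
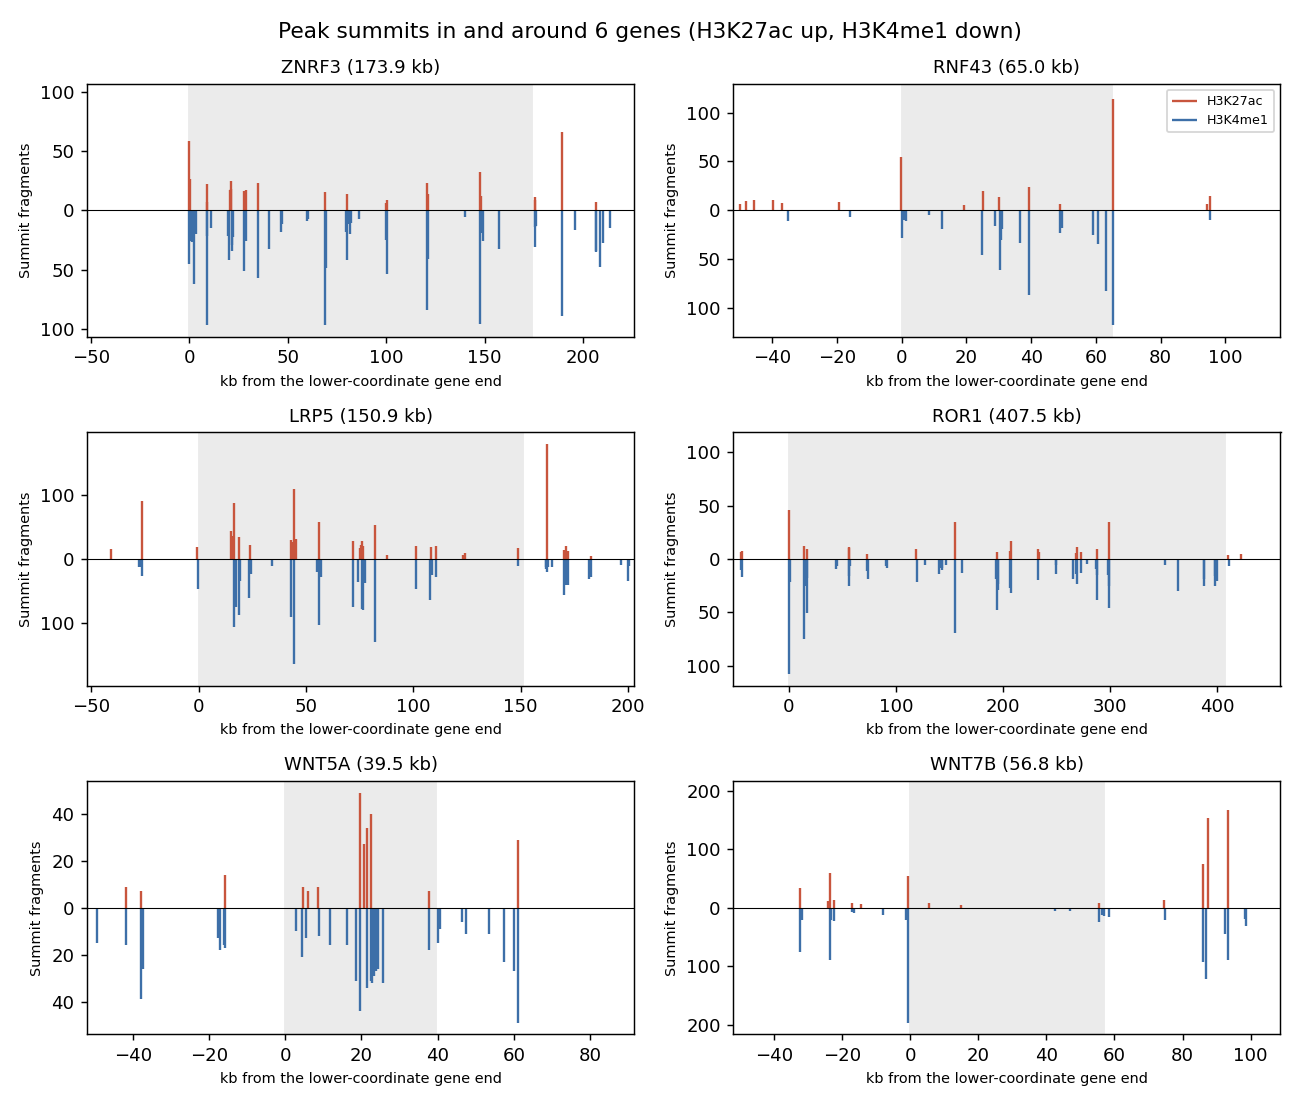
Summit fragments of every H3K27ac peak (red, upward) and H3K4me1 peak (blue, downward) in 6 genes (grey) and 50 kb on each side, by distance in kb from the lower-coordinate gene end. LRP5 and ZNRF3 carry peaks along the gene, WNT5A has a cluster in the middle of the gene, and the deepest H3K27ac near WNT7B lies outside the gene.

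At the ends of most of these genes H3K27ac was shallower than at the median marked gene. Of the 21 members with both marks, 17 had an H3K27ac pileup under 70 fragments, the median over all genes with H3K27ac at an end, and the other 4 were FZD6, RNF43, LRP6 and RYK. Of the 25 with H3K4me1, 16 were above the corresponding median of 35 fragments, above which as many marked genes lie as below it. The ratio of H3K4me1 to H3K27ac pileup exceeded 1 at 15 of the 21, against 23.9% of the 11719 genes with both pileups. At WNT1 and WNT11 the deepest peaks of the marks lie at different ends, and of the other 19 the ratio exceeded 1 at 13. The median ratio was 2.00 in the members and 0.563 over those genes, with 2.58 in ligands and 1.94 in Frizzled receptors and coreceptors. FZD6 at 0.159 and LRP6 at 0.215 were the members below the median of all genes. The libraries differ in depth and antibody, so this ratio orders genes and is not a ratio of the marks. No test was made over these genes, which were not chosen at random.

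The share of H3K27ac peaks overlapping H3K4me1 is given by role, with no test of the difference. In the bodies of Frizzled and coreceptor genes 59 of 67 H3K27ac peaks did so (88.1%, exact Clopper-Pearson 95% interval 77.8 to 94.7), in ligand genes 26 of 44 (59.1%, 43.2 to 73.7) and in the ligases 24 of 25 (96.0%, 79.6 to 99.9). Inside all protein-coding genes the share was 75.2% (74.8 to 75.6). LRP5 and ROR1 together held 41 of the 67 receptor peaks, and without them the share was 23 of 26 (88.5%, 69.8 to 97.6), a setting chosen after seeing the data. The H3K27ac peaks in ligand bodies were also shallower, with a median of 8.5 fragments against 21 in receptor bodies, and the part of depth in these shares was not tested. Over all 273 H3K27ac peaks in the 36 genes and the 50 kb around them, 74.4% (68.7 to 79.4) overlapped H3K4me1, and 73.6% (73.2 to 73.9) of all H3K27ac peaks did. Peaks of 1 library are not replicates, and these intervals cover counting error only.

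The CG content of marked and unmarked starts overlapped. The 300 bases from 250 before to 50 after a start held a median of 21 CG dinucleotides over 22156 windows of protein-coding genes. The 14 windows of members with H3K27ac within 1 kb held 5 to 53 (median 36), the 5 with H3K4me1 alone 0 to 49 (median 31) and the 11 with neither 4 to 43 (median 28). RNF43, with the deepest H3K27ac among the listed starts, had 5. In contrast, WNT2 with 43, ROR2 with 42, WNT9B with 38 and WNT6 with 37 had neither mark within 1 kb. The sequences printed above show the same contrast between RNF43 and WNT2.

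Short motifs were searched on both strands of the same windows, where a match is only a match of letters. The TCF/LEF cores CTTTGAT and CTTTGAA were in 0 of the 30 member windows, and in 1.99% and 3.62% of all windows. The androgen receptor core AGAACA was in 3 (WNT2B, WNT8B and RNF43), against 11.7% of all windows, and the forkhead core TGTTTAC in 1 (WNT5B), against 2.85%. CTTTGAT and CTTTGAA differ in their last letter.

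**Figure D5:**
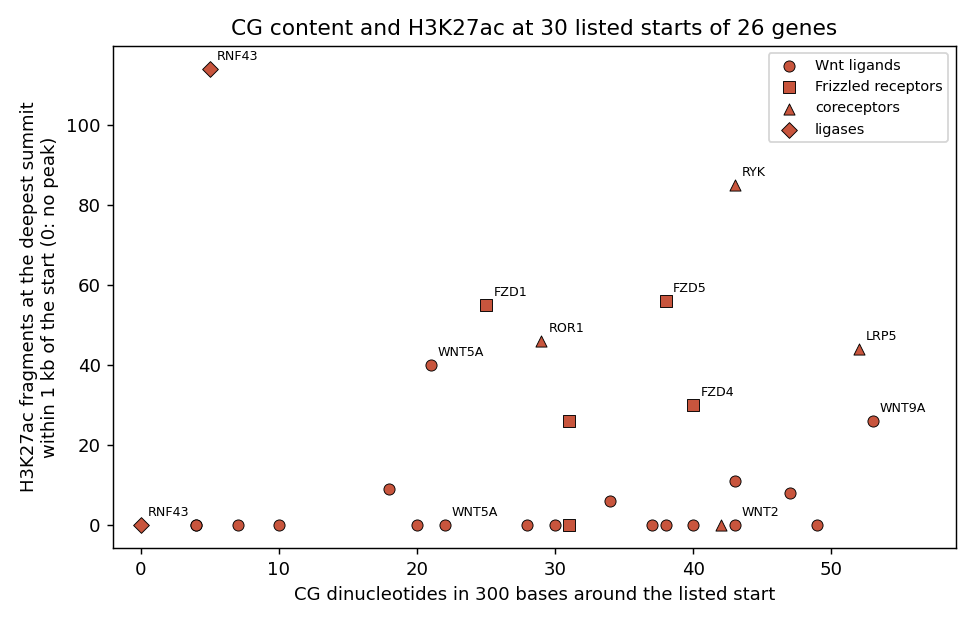
H3K27ac fragments at the deepest summit within 1 kb of each of 30 listed starts, 0 where no peak was called, against the number of CG dinucleotides in the 300 bases around the start. RNF43 has 114 fragments at 5 CG dinucleotides, and WNT2 has no peak at 43.

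Elsewhere in the pathway, genes of the intracellular core carried the marks and most genes of secreted antagonists and R-spondins did not carry H3K27ac. Counting each of 53 other pathway genes once, 37 had H3K27ac and 44 had H3K4me1 at an end (69.8% and 83.0%, against 62.3% and 65.6% of all genes). The H3K27ac share is thus near that of all genes, and the lists below hold few genes each. All 13 Dishevelled and destruction complex genes had H3K27ac, led by the kinase genes CSNK1A1 with 292 fragments (259 to 327) and GSK3B with 189 (163 to 218), and 12 had H3K4me1. Among 11 nuclear effectors 10 had both marks, with 168 H3K27ac fragments (144 to 195) at PYGO2, 107 (87.7 to 129) at BCL9L and 92 (74.2 to 113) at CTNNB1, the beta-catenin gene. TCF7 had neither.

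H3K27ac was found at 4 of 14 secreted antagonists and antagonist receptors, and H3K4me1 at 10. DKK4 had 139 H3K27ac fragments (117 to 164) and KREMEN1 66 (51.0 to 84.0), while SFRP1, SFRP2 and WIF1 were among 7 genes with H3K4me1 alone and DKK1, DKK2 and SOSTDC1 had neither mark. Among the R-spondins and their LGR receptors 3 of 7 had H3K27ac, with 19 fragments (11.4 to 29.7) at LGR4 and 9 (4.12 to 17.1) at LGR6, and RSPO1 and RSPO2 had neither mark. In a list of 3 genes that act on the Wnt lipid or on its transport, PORCN, which encodes the acyltransferase that lipidates Wnt proteins, had 41 (29.4 to 55.6) and WLS, the gene of the carrier that brings Wnt proteins to the cell surface, 34 (23.5 to 47.5) H3K27ac fragments. NOTUM, which encodes a secreted enzyme that removes the lipid, had no H3K27ac and 6 H3K4me1 fragments. Of 12 commonly used Wnt target genes, ZNRF3 and RNF43 included, 9 had both marks. CCND1 had 75 H3K27ac fragments (59 to 94), and TCF7 and DKK1 had neither mark.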

How the data were processed

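CUT&Tag was performed on C4-2B enzalutamide-resistant cells with 1 library each for H3K4me1 and H3K27ac, from 100000 cells and 14 PCR cycles per the labels' protocols, which name a rabbit anti-mouse secondary antibody; its effect was not tested. BWA, MACS2 and hg38 are named in the submitters' processing notes, and versions, settings, duplicate removal and use of a background library are not given in the sources used here. The deposited peak lists give, per peak, a fold enrichment ratio over local background, −log10 p and −log10 q, and a score, all made by the authors' peak caller; the deposited summit offset was used for positions. Sequencing depth is unknown.

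Of the deposited peaks, 64784 of 64850 (H3K27ac) and 139511 of 139692 (H3K4me1), those on chromosomes 1 to 22 and X, entered. Summit pileup was solved from fold and p as a whole number for 99.94% and 99.98% of peaks, within 0.001 in −log10 p or a relative 0.0001, a step tested on simulated data. Genes, spans and promoter windows came from RefSeq GRCh38.p14 tables. Which end is the start was known only for genes in the promoter table. Python 3.11.15, pandas 2.3.3, scipy 1.17.1 and numpy 2.4.6 were used. Super-enhancer-like regions excluded H3K27ac peaks contained in the 2.5 kb around gene ends and were thresholded where the scaled rank curve has slope 1. Values in full were given for the 3 members of each role with the deepest summits of each mark at an end, members near such regions, and members with 1 mark; members with neither were given by their peak counts and deepest peaks. WNT5A's sequence, further peaks and further pathway genes were chosen after their values were seen. A further blood marker is not reported here. Members and lists were chosen with earlier results of these data known. Alternatives were other windows, peak thresholds, start positions, overlaps and region settings. No replicate exists, so no test was made.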

Additional observations from a re-analysis of the deposited data

How the results depend on the processing

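Over 38 alternatives to 6 results, 29 stayed within 1.5 times the reported count or inside the interval of the reported share, and 9 moved further. The listed-start counts are among these 9, but they cover fewer genes, so their fall is not a fall in share by itself. The 8 ligands with H3K27ac fell to 5 with a minimum -log10 q of 5 and to 4 with at least 10 fragments. With listed starts only, fewer genes could be counted: 5 of 16 ligands had H3K27ac and 7 had H3K4me1, and of 9 Frizzled receptors and coreceptors 7 had each mark, against 64.8% of 15812 genes for H3K27ac and 67.5% for H3K4me1. Adding listed starts to the gene ends, chosen after seeing the data, gave 9 ligands with H3K27ac through WNT5A. The 6 members near super-enhancer-like regions became 16 with a 1 kb joining gap, and lay between 4 and 7 in the other settings, and 3 of the 7 with gene-end peaks kept were among the original 6. The overlap of 74.4% became 64.5% when at least 0.5 of the H3K27ac peak's length had to be shared and 88.8% with a minimum -log10 q of 5. Shares over all genes or all peaks were counted for the main settings, the depth of 10 fragments and the listed starts. They were not counted for the other alternatives, whose values therefore have no background here. No paired analysis was possible because each mark has 1 library and the labels carry no replicate numbers. Shallow peaks of under 10 fragments limit what can be said of WNT1, WNT2B, WNT3A, WNT4, WNT11 and FZD9.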
